A study of Mus musculus with 6 samples.

Results

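Expression of 32 genes of cholesterol and fatty acid synthesis was followed in AB22 cells, a mouse malignant mesothelioma line, with and without silencing of Hmgb1, the gene of an abundant chromatin protein. The genes are targets or regulators of the sterol regulatory element binding proteins (SREBPs). They were taken by symbol from a deposited table of 12134 genes, which lists all 32, and all 32 passed the filter on low values. They fall into a sterol arm of 19 genes, 5 regulators and a fatty acid arm of 8 genes. Both groups of cells carried a pTRIPZ lentiviral vector, infected at a multiplicity of 20 and selected with puromycin at 4 µg/mL, and grew in tetracycline-free serum at 5% oxygen. Both received doxycycline at 1 µM, which switches on the hairpin RNA, for 7 to 10 days, and RNA was taken from cells synchronised in G1, for which the labels give no radiation dose. The shCTRL group expressed a control hairpin and the shHMGB1 group a hairpin against Hmgb1, with 3 libraries in each group, lettered A, B and C in both. The labels name a single hairpin for each group and a single cell line, so hairpin, transduced population and silencing cannot be told apart. The comparison asks what silencing Hmgb1 does to the transcripts of these genes.

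SREBPs are transcription factors made as membrane proteins of the endoplasmic reticulum. Their partner Scap carries them to the Golgi when membrane sterol is low, where proteases release the part that enters the nucleus, and the Insig proteins hold Scap back when sterol is plentiful. In the nucleus SREBPs bind sterol regulatory elements and E-box-like sites, commonly with the factors NF-Y and Sp1 beside them. The Srebf2 product is best known for genes of cholesterol synthesis and the Srebf1 products for genes of fatty acid synthesis, and Insig1 is itself an SREBP target.

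The 250 bases before the annotated start were available for 25 of the 32 genes (RefSeq starts, GRCm38.p6; gene locations given further on are those of GENCODE M21 on GRCm38). They were searched on both strands for the sterol regulatory element core TCACNCCAC, in which N is any base, for the narrower CACCCCAC, which it contains where N is C, for the E-box CACGTG, for the NF-Y box CCAAT and for the Sp1 box GGGCGG. The core was found upstream of Hmgcs1, 1 of the 25 genes, against 1.05% of 32851 windows of the same length in the genome. CACCCCAC was found upstream of Hmgcs1 and Acat2, against 2.58% of windows. The E-box was found upstream of Dhcr7, Hsd17b7, Insig1, Sc5d and Scap, 5 of the 25 genes, against 6.02% of windows. CCAAT was found upstream of 19 genes and GGGCGG upstream of 21, against 33.9% and 32.7% of windows. Fdps, Fdft1, Sqle, Stard4, Scd1, Scd2 and Fads1 had no window and were not searched. A gene counts here if any of its annotated starts holds the motif, and over all genes counted that way the shares were 1.22% for the core, 2.98% for CACCCCAC, 6.86% for the E-box, 37.5% for CCAAT and 35.4% for GGGCGG. The sequences of 3 genes are shown: Insig1 and Hsd17b7, whose groups did not overlap, in opposite directions, and Hmgcs1, the gene with the sterol element core. None of the 3 passed the test, and the groups of Hmgcs1 overlapped. Capitals mark the E-box in Insig1 and Hsd17b7 and the sterol element core in Hmgcs1, which lie 101 to 96, 143 to 138 and 137 to 129 bases before the start.
Insig1: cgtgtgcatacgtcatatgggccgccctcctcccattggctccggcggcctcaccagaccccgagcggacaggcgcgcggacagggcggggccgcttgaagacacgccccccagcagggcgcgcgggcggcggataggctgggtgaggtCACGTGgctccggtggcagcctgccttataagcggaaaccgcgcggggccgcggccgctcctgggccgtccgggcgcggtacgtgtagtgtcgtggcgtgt
Hsd17b7: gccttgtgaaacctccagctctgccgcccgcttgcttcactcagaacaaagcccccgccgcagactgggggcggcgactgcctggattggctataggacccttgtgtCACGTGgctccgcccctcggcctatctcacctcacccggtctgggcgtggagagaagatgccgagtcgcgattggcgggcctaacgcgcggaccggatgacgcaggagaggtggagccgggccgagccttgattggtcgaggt
Hmgcs1: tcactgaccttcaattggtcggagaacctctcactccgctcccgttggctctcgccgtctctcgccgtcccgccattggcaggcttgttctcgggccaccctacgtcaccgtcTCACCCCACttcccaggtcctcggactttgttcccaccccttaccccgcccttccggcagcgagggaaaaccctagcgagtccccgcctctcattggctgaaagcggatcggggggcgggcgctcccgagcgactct
They lie at chr5:28071162-28071411 on the plus strand, at chr1:169969206-169969455 on the minus strand and at chr13:119690101-119690350 on the plus strand.

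Values are RPKM (reads scaled to gene length and sequencing depth), given for replicates A, B and C in that order, and means carry the SD over 3 libraries. Effective library sizes, the depths by which RPKM was scaled, were recovered from the values as 10871390 to 25560028 reads. Reads on the listed genes numbered 9197372 to 21430320 per library. The members' reads per library ran from 15 for Tm7sf2 to 24684 for Scd2. Hmgb1 measured 33.4, 45.5 and 31.9 RPKM under the control hairpin and 7.18, 5.79 and 3.803 RPKM under the Hmgb1 hairpin, and the groups did not overlap. It passed the test (log2 fold change -2.73, SE 0.26, limma adjusted p = 0.0269), but the call was lost in 5 of 19 alternatives, in which the log2 fold change stayed between -2.83 and -2.57. These were the stricter 5 RPKM filter (limma adjusted p = 0.0546) and the omission of shCTRL A, shCTRL B, shCTRL C or shHMGB1 B (0.138, 0.247, 0.116 and 0.197). Of 10 mesothelial markers, Msln, Pdpn, Bnc1, Efemp1 and Gas1 had values, which summed to 592 to 668 RPKM in shCTRL and 459.6 to 579 RPKM in shHMGB1. All 5 had negative fold changes and none passed the test, and most of the sum was Efemp1. Msln, the marker mesothelin, measured 60.9, 57.8 and 82.8 RPKM in shCTRL and 39.1, 31.7 and 27.9 RPKM in shHMGB1, without overlap. Bnc1 measured 3.52, 4.16 and 4.26 RPKM in shCTRL and 2.72, 2.64 and 1.98 RPKM in shHMGB1, also without overlap. Gas1, at 39.7, 47.4 and 56.2 RPKM against 25.0, 29.1 and 38.6 RPKM, did not overlap either, whereas Pdpn and Efemp1 did. Lower values without overlap were found for 7.07% of all genes. Wt1, Upk3b, Krt8, Krt18 and Krt19 were sought too, and no values of theirs were analysed here. Of 11 markers of leukocytes, endothelium, epithelium, adipocytes and hepatocytes only Cdh1 had values, of 0.279 to 0.736 RPKM. The summed level of 14 genes of dividing cells was 19.02, 28.8 and 18.3 RPKM in shCTRL and 28.8, 68.0 and 28.5 RPKM in shHMGB1. These sums overlapped between the groups, with shHMGB1 B far above the other libraries. All 14 had positive fold changes, against 51.7% of all genes tested, and none passed the test. Library shCTRL B stood apart in mitochondrial ribosomal RNA, with 2215 RPKM of mt-Rnr1 against 194 to 589.6 RPKM in the other libraries and 2599 RPKM of mt-Rnr2 against 543 to 1636 RPKM. It was also the lowest library for Dhcr7, Fasn and Scd2, whose log2 fold changes were 0.95, 0.47 and 0.31 without it. The part of the mesothelial markers and of dividing cells in the results was not tested. In bulk RNA, fewer cells with a transcript and less of it per cell cannot be told apart.

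The lipid synthesis genes were among the well-expressed genes of these cells. Scd2, a stearoyl-CoA desaturase that makes monounsaturated fatty acids, was the most abundant at a mean of 179 RPKM over the 6 libraries, above 97.7% of all genes in the table. Next came ATP citrate lyase (Acly, 123 RPKM), which makes cytosolic acetyl-CoA, and then came the sterol enzymes, the C4-methylsterol oxidase Msmo1 (120.4 RPKM) and squalene epoxidase (Sqle, 119 RPKM). The order of Scd2, Acly, Msmo1 and Sqle is not clear, since their ranges over libraries overlap. In shCTRL B, Scd2 (96.2 RPKM) lay below Acly (104 RPKM), Msmo1 (110.3 RPKM) and Sqle (101 RPKM). In shHMGB1 A, Scd2 (152 RPKM) lay below Msmo1 (182 RPKM), while in the remaining libraries it was the highest of these genes. At the other end stood Tm7sf2, a sterol C14-reductase, at 1.11 RPKM, the sterol carrier Stard4 at 3.44 RPKM and Dhcr7, which catalyses the final reduction to cholesterol, at 4.79 RPKM. The remaining 25 genes measured 12.3 RPKM (Srebf1) to 88.02 RPKM (Cyp51). The median level was 39.3 RPKM in the sterol arm, 23.5 RPKM among the regulators and 44.3 RPKM in the fatty acid arm, against 9.06 RPKM over the 11669 genes tested.

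**Figure D1:**
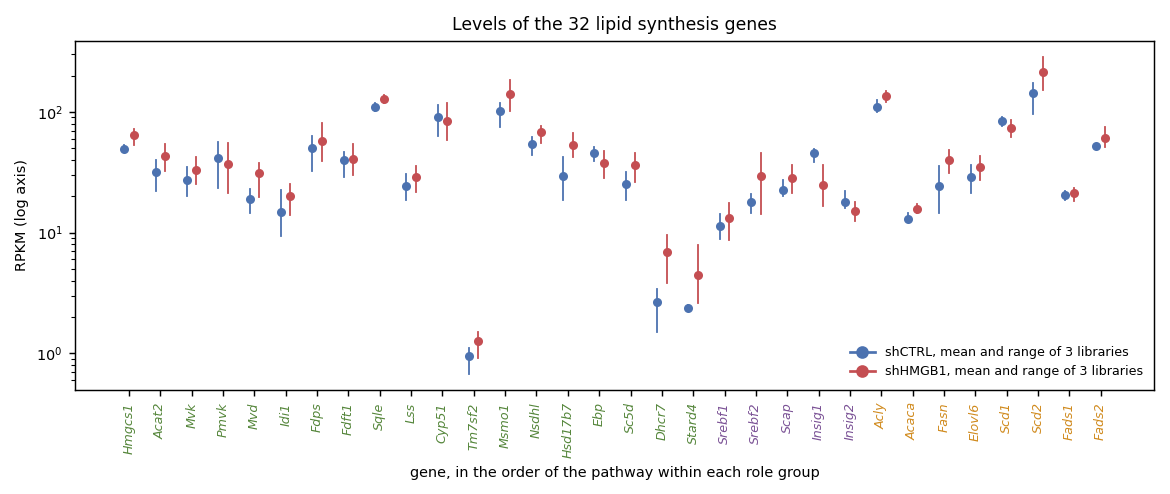
Mean level (points) and range over 3 libraries (lines) of the 32 genes in shCTRL (blue) and shHMGB1 (red), in RPKM on a log axis, with the sterol arm in green lettering, regulators in purple and the fatty acid arm in orange. All but Tm7sf2, Dhcr7 and Stard4 lie above 8 RPKM in every library, and the ranges of the groups overlap for most genes.

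None of the 32 genes passed the test at an adjusted p under 0.05 in limma, 0 higher and 0 lower, beside 3 of 11669 genes tested (0.0257%), all lower in shHMGB1. Their adjusted p-values ran from 0.487 (Insig1) to 0.990 (Fdft1). The log2 fold change was positive for 16 of the 19 sterol genes, 3 of the 5 regulators and 7 of the 8 fatty acid genes, 26 of 32 in all, against 51.7% of all genes tested. The median log2 fold change was 0.36 in the sterol arm, 0.20 among the regulators and 0.26 in the fatty acid arm, against 0.01 over all genes tested. With libraries rescaled to equal sums these medians were 0.71, 0.55, 0.62 and 0.36, and Pmvk, Cyp51, Ebp, Insig2 and Scd1 turned positive, which left only Insig1 negative. That scaling shifts all genes alike, and against the median of all genes those 5 stayed negative, at -0.30 to -0.13 under it. At an unadjusted p under 0.05, 4 members were higher (Dhcr7, Hsd17b7, Mvd and Fasn) and 1 was lower (Insig1), against 3.78% and 4.13% of all genes, or 7.91% in either direction. With equal sums 13 members were higher and 0 lower at that threshold, so that Insig1 was no longer among them. Under that scaling 6.33% of all genes were under 0.05 in either direction. The groups did not overlap for 5 members with higher values (Dhcr7, Hsd17b7, Stard4, Sqle and Acaca) and for Insig1 with lower values, against 6.90% and 7.07% of all genes, or 14.0% either way. The 5 members under 0.05 became 2 without shCTRL replicate B or C and 3 without shHMGB1 replicate B. They became 9 without shHMGB1 replicate A or C. The share of all genes under 0.05 moved too, to 3.91% and 6.04% without shCTRL B and C. It was 3.65%, 20.9% and 6.43% without shHMGB1 B, A and C in turn. The sterol median was 0.23 without shCTRL replicate C and also without shHMGB1 replicate A. For the regulators the median became 0.04 with shCTRL B omitted, 0.38 with shCTRL C omitted, 0.47 with shHMGB1 A omitted and -0.04 with shHMGB1 C omitted. In the main fit and in each of these fits, that median was the value of Srebf1. For 24 of the 32 genes the omission of at least 1 library moved the log2 fold change by over 1.5 times. The other 8 were Hmgcs1, Mvd, Sqle, Hsd17b7, Dhcr7, Insig1, Acly and Acaca.

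**Figure D2:**
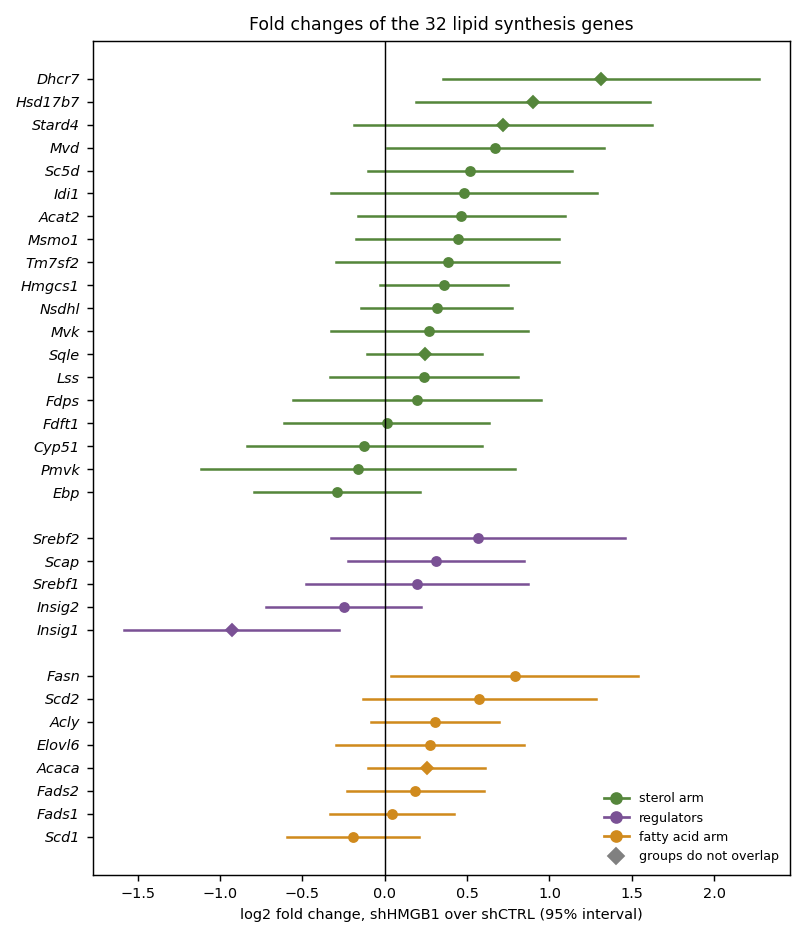
Log2 fold change of each of the 32 genes, shHMGB1 over shCTRL, with limma's 95% interval, on log2(RPKM + 0.1), by role group and by size, where diamonds mark genes whose groups do not overlap. Most points lie to the right of 0, Insig1 lies farthest to the left at -0.93, and only the intervals of Dhcr7, Hsd17b7, Mvd, Insig1 and Fasn exclude 0 before adjustment.

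Among the regulators, Insig1 had the lowest fold change of the 32 genes. The gene, which encodes an anchor that retains Scap and lies on chromosome 5 (28071363 to 28078662, plus strand, GRCm38), measured 49.5, 47.6 and 38.6 RPKM under the control hairpin and 36.2, 21.9 and 16.5 RPKM under the Hmgb1 hairpin, so that every shHMGB1 library lay below every shCTRL library. The group means were 45.2 ± 5.84 and 24.9 ± 10.2 RPKM, and the difference did not pass the test (log2 fold change -0.93, SE 0.28, limma adjusted p = 0.487, 95% interval -1.58 to -0.28). The reads behind these values numbered 1830, 1395 and 2660 in shCTRL and 1906, 1305 and 663 in shHMGB1. The log2 fold change was -0.67 without shHMGB1 replicate C and negative in all 19 alternatives. With libraries rescaled to equal sums it was -0.57, which is -0.94 against the median of all genes, as before rescaling. Insig2, the second gene of this family, measured 15.9, 16.1 and 22.2 RPKM under the control hairpin and 12.5, 14.96 and 17.97 RPKM under the Hmgb1 hairpin. Its groups overlapped (log2 fold change -0.25, SE 0.20, limma adjusted p = 0.756), and its fold change turned to 0.11 on the log2 scale with libraries rescaled to equal sums, which is -0.26 against the median of all genes, as before rescaling. It was -0.094 with shCTRL C omitted, -0.12 with shHMGB1 A omitted and -0.38 with shHMGB1 C omitted. In shCTRL the level of Insig1 was above that of Insig2 in every library, whereas in shHMGB1 replicate C Insig2 measured 17.97 RPKM and Insig1 16.5 RPKM.

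The genes of the transcription factors and of their escort had higher means in shHMGB1 with wide spread. Srebf2 measured 18.3, 14.5 and 20.9 RPKM under the control hairpin and 14.3, 27.9 and 45.3 RPKM under the Hmgb1 hairpin (log2 fold change 0.57, SE 0.39, limma adjusted p = 0.731). Replicate A of shHMGB1 lay below all 3 shCTRL libraries and replicates B and C above them, and without replicate C the log2 fold change was 0.17. Scap measured 19.97, 20.8 and 27.4 RPKM under the control hairpin and 21.1, 28.3 and 36.2 RPKM under the Hmgb1 hairpin, and its groups overlapped (log2 fold change 0.31, SE 0.23, limma adjusted p = 0.746), with a log2 fold change of 0.12 without shHMGB1 replicate C. Srebf1 measured 10.6, 8.84 and 14.3 RPKM under the control hairpin and 8.67, 13.3 and 17.73 RPKM under the Hmgb1 hairpin, again with overlapping groups (log2 fold change 0.20, SE 0.29, limma adjusted p = 0.824), and its sign turned without that library (-0.04). With shHMGB1 A omitted the log2 fold changes of Srebf2, Scap and Srebf1 were 1.01, 0.51 and 0.47, and that of Srebf1 was 0.04 with shCTRL B omitted and 0.38 with shCTRL C omitted. Within both groups Srebf1, Srebf2, Scap and Insig2 were highest in replicate C, while Insig1 was highest in replicate A and lowest in replicate C.

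**Figure D3:**
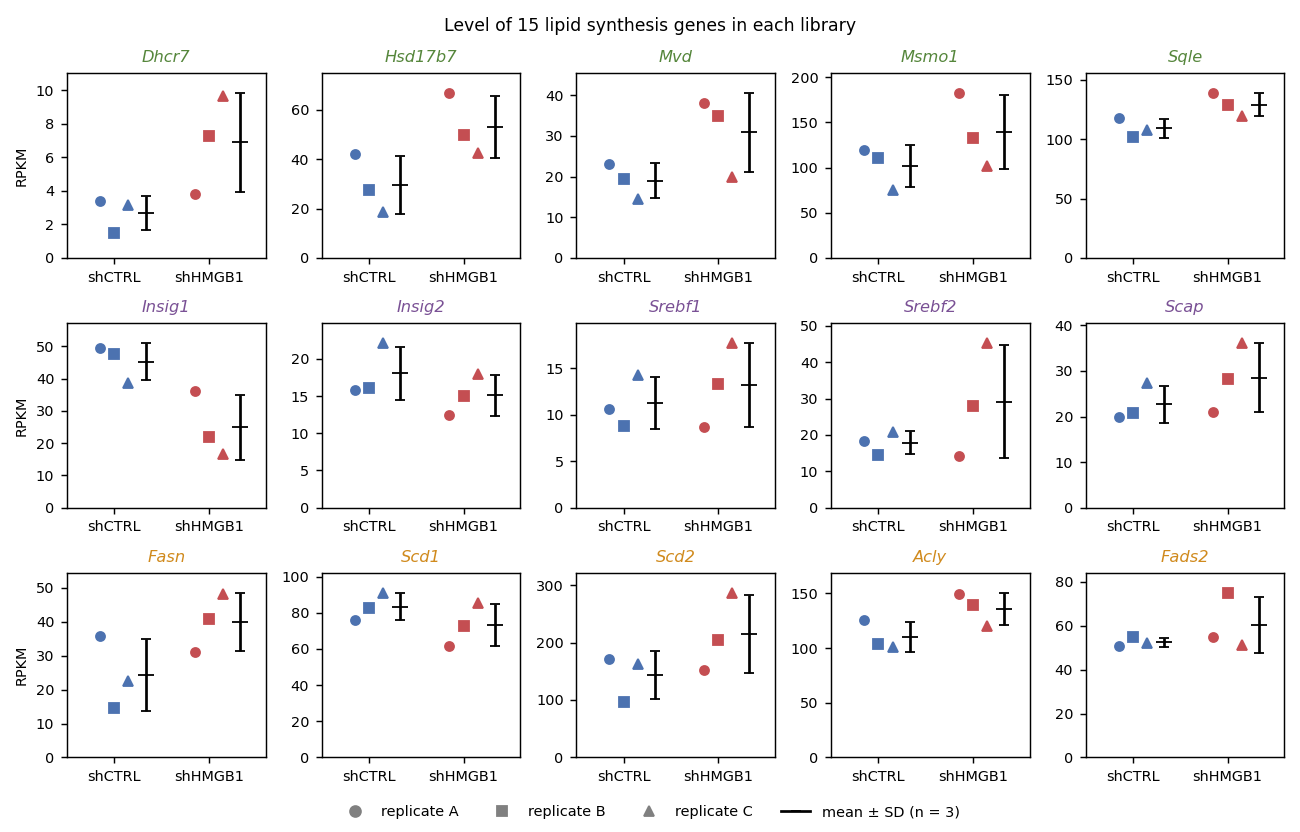
RPKM of 15 of the genes in each library, from 0, with replicates A (circle), B (square) and C (triangle) in shCTRL (blue) and shHMGB1 (red) and the mean ± SD of 3 libraries in black. Insig1 separates the groups downward and Dhcr7, Hsd17b7 and Sqle upward, while Srebf2, Scd2 and Fasn spread widely between libraries of one group.

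In the sterol arm the early steps build isoprenoid units from acetyl-CoA. Hmgcs1, the cytosolic HMG-CoA synthase, measured 47.8, 47.3 and 52.8 RPKM under the control hairpin and 72.1, 66.7 and 52.7 RPKM under the Hmgb1 hairpin, and its groups touched, since shHMGB1 replicate C lay just below shCTRL replicate C. It did not pass the test (log2 fold change 0.36, SE 0.17, limma adjusted p = 0.651). The acetoacetyl-CoA thiolase gene Acat2 averaged 31.6 ± 8.93 and 43.4 ± 11.1 RPKM in the groups, a log2 difference of 0.46. The mevalonate kinase gene Mvk averaged 27.2 ± 7.39 and 32.7 ± 8.502 RPKM, a log2 difference of 0.27. Mvd, the mevalonate diphosphate decarboxylase gene on chromosome 8, measured 23.1, 19.3 and 14.4 RPKM under the control hairpin and 37.96, 34.8 and 19.9 RPKM under the Hmgb1 hairpin (log2 fold change 0.67, SE 0.28, limma adjusted p = 0.623). Replicates A and B of shHMGB1 lay above all shCTRL libraries and replicate C lay among them. The phosphomevalonate kinase gene Pmvk went the other way in its mean, with means of 41.3 ± 16.5 RPKM under the control hairpin and 37.3 ± 17.1 RPKM under the Hmgb1 hairpin and a log2 fold change of -0.16, or 0.19 with libraries rescaled to equal sums, which is -0.17 against the median of all genes. The isomerase gene Idi1, at means of 14.8 ± 6.95 RPKM under the control hairpin and 19.98 ± 5.78 RPKM under the Hmgb1 hairpin, had a log2 fold change of 0.48, and the farnesyl diphosphate synthase gene Fdps, at means of 49.9 ± 15.8 RPKM under the control hairpin and 57.5 ± 20.8 RPKM under the Hmgb1 hairpin, had 0.20. Exons annotated for Fdps in GENCODE M21 cover 4208 bases and share 1124 of them with a gene on the same strand. The length recovered from its values was 1453 bases, so whether its reads were split is not known. In that annotation, 11 of the 32 genes share exon bases with another gene. Neither the strand setting nor the authors' gene model is stated, so their values are less certain. Several of these early-step values rested on single libraries. With shCTRL C omitted the log2 fold changes were 0.23 for Acat2, 0.072 for Mvk, -0.52 for Pmvk, 0.21 for Idi1 and -0.084 for Fdps, and with shHMGB1 A omitted they were 0.29, 0.075, -0.50, 0.29 and -0.073. With shCTRL A omitted they were 0.47 for Mvk, 0.10 for Pmvk, 0.84 for Idi1 and 0.40 for Fdps. With shHMGB1 C omitted they were 0.44 for Mvk, 0.18 for Pmvk and 0.44 for Fdps, and Pmvk was at -0.069 with shCTRL B omitted.

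The next steps join farnesyl units to squalene and close the sterol rings, and Cyp51, which acts on the lanosterol they yield, is described with them. Squalene epoxidase, Sqle, which is often the slow step of this stretch, measured 118, 101 and 108 RPKM under the control hairpin and 139, 129 and 119 RPKM under the Hmgb1 hairpin. All shHMGB1 libraries lay above all shCTRL libraries by a small margin (log2 fold change 0.24, SE 0.15, limma adjusted p = 0.721). The squalene synthase gene Fdft1 had means of 39.95 ± 9.73 RPKM under the control hairpin and 40.5 ± 12.1 RPKM under the Hmgb1 hairpin, with a log2 fold change of 0.01, and 774 bases of its exons overlap Ctsb on the other strand. The lanosterol synthase gene Lss averaged 24.4 ± 6.16 and 28.7 ± 6.81 RPKM, a log2 difference of 0.24. Cyp51, the sterol 14-demethylase gene and the next most abundant of the arm after Msmo1 and Sqle, had means of 91.3 ± 25.6 RPKM under the control hairpin and 84.8 ± 30.2 RPKM under the Hmgb1 hairpin and a log2 fold change of -0.12, or 0.23 with libraries rescaled to equal sums, which is -0.13 against the median of all genes. With shCTRL C omitted the log2 fold changes of Lss, Fdft1 and Cyp51 were 0.058, -0.21 and -0.37, and with shHMGB1 A omitted 0.075, -0.21 and -0.39. With shCTRL A omitted they were 0.42, 0.14 and 0.051, and with shHMGB1 C omitted 0.42, 0.21 and 0.11. With shCTRL B omitted Fdft1 was at 0.10 and Cyp51 at -0.056, and Fdft1 was at 0.041 with shHMGB1 B omitted.

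Genes of the late steps after Cyp51, which lead on to cholesterol, held the largest fold changes of the arm. Dhcr7, on chromosome 7 (143823145 to 143848410, plus strand), measured 3.399, 1.504 and 3.15 RPKM under the control hairpin and 3.79, 7.26 and 9.64 RPKM under the Hmgb1 hairpin. Every shHMGB1 library lay above every shCTRL library, narrowly for replicate A, and the reads numbered 154, 54 and 266 in shCTRL and 245, 531 and 475 in shHMGB1. The group means were 2.68 ± 1.03 and 6.896 ± 2.94 RPKM (log2 fold change 1.31, SE 0.41, limma adjusted p = 0.510, 95% interval 0.35 to 2.27). Hsd17b7, a sterol 3-ketoreductase gene on chromosome 1 (169949535 to 169969241, minus strand), measured 42.1, 27.7 and 18.6 RPKM under the control hairpin and 66.8, 49.9 and 42.5 RPKM under the Hmgb1 hairpin. Its lowest shHMGB1 library lay just above its highest shCTRL library, and the difference did not pass the test (log2 fold change 0.90, SE 0.31, limma adjusted p = 0.532, 95% interval 0.19 to 1.61). Msmo1, the most abundant sterol gene, measured 119, 110.3 and 74.98 RPKM under the control hairpin and 182, 133 and 102 RPKM under the Hmgb1 hairpin, with overlapping groups (log2 fold change 0.44, SE 0.27, limma adjusted p = 0.717). The sterol desaturase gene Sc5d had means of 25.5 ± 6.67 RPKM under the control hairpin and 36.6 ± 9.77 RPKM under the Hmgb1 hairpin and a log2 fold change of 0.52, and the dehydrogenase gene Nsdhl had means of 54.3 ± 9.13 RPKM under the control hairpin and 67.6 ± 11.2 RPKM under the Hmgb1 hairpin and a log2 fold change of 0.32. The isomerase gene Ebp averaged 45.7 ± 6.06 and 37.98 ± 9.62 RPKM, with the most negative log2 fold change of the arm, -0.29, or 0.067 with libraries rescaled to equal sums, which is -0.30 against the median of all genes. Tm7sf2, with 15 to 54 reads per library, averaged 0.954 ± 0.240 and 1.27 ± 0.314 RPKM, a log2 difference of 0.38. Stard4, which moves sterol between membranes, measured 2.53, 2.23 and 2.38 RPKM under the control hairpin and 2.59, 3.06 and 7.84 RPKM under the Hmgb1 hairpin, so that the log2 fold change of 0.72 was 0.24 without shHMGB1 replicate C. With shCTRL C omitted the log2 fold changes were 0.24 for Msmo1, 0.30 for Sc5d and 0.17 for Nsdhl, and with shHMGB1 A omitted they were 0.23 for Msmo1, 0.34 for Sc5d, -0.47 for Ebp and 0.59 for Tm7sf2. Tm7sf2 was at 0.18 with shCTRL A omitted and Ebp at -0.096 with shHMGB1 C omitted.

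In the fatty acid arm the log2 fold changes were positive for all genes but Scd1, which turned with libraries rescaled to equal sums, while Fads1 turned negative with shCTRL A, shHMGB1 B or shHMGB1 C omitted. None passed the test. Fasn, the fatty acid synthase gene on chromosome 11 (120805846 to 120824547, minus strand), measured 35.7, 14.6 and 22.7 RPKM under the control hairpin and 31.1, 40.7 and 48.2 RPKM under the Hmgb1 hairpin (log2 fold change 0.79, SE 0.32, limma adjusted p = 0.620). Replicate A of shCTRL lay above replicate A of shHMGB1, so the groups overlapped, and the log2 fold change was 0.47 without shCTRL replicate B. Acly measured 126, 104 and 101 RPKM under the control hairpin and 149, 139 and 120.1 RPKM under the Hmgb1 hairpin, with only shCTRL replicate A reaching into the range of shHMGB1 (log2 fold change 0.31, SE 0.17, limma adjusted p = 0.701). Acaca, the gene of acetyl-CoA carboxylase, measured 14.4, 12.2 and 12.6 RPKM under the control hairpin and 14.9, 14.6 and 17.3 RPKM under the Hmgb1 hairpin, and its groups did not overlap although the difference was small (log2 fold change 0.25, SE 0.15, limma adjusted p = 0.717). With the gene length trend of each library taken off it was 0.060. The elongase gene Elovl6 had means of 28.8 ± 7.66 RPKM under the control hairpin and 34.7 ± 7.74 RPKM under the Hmgb1 hairpin and a log2 fold change of 0.28. That value was 0.070 with shCTRL C omitted, 0.11 with shHMGB1 A omitted, 0.46 with shCTRL A omitted, 0.43 with shHMGB1 C omitted and 0.15 with the length trend taken off.

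The desaturases form gene pairs. Scd1 and Scd2, paralogous genes near one another on chromosome 19, can share reads, and the sources used here do not say how the authors treated such reads. Scd2 measured 172, 96.2 and 163 RPKM under the control hairpin and 152, 205 and 287 RPKM under the Hmgb1 hairpin (log2 fold change 0.57, SE 0.30, limma adjusted p = 0.690), and its fold change was 0.31 with shCTRL B left out and 0.34 with shHMGB1 C left out. Scd1 measured 76.3, 82.4 and 91.2 RPKM under the control hairpin and 61.9, 72.4 and 85.5 RPKM under the Hmgb1 hairpin, with overlapping groups (log2 fold change -0.19, SE 0.17, limma adjusted p = 0.769), or 0.16 with libraries rescaled to equal sums, which is -0.20 against the median of all genes. Its log2 fold change was -0.13, -0.078 and -0.31 with shCTRL C, shHMGB1 A and shHMGB1 C omitted in turn. Whether Scd1 and Scd2 differed in response was not tested. Fads1 and Fads2, neighbouring genes of the delta desaturases that make polyunsaturated fatty acids, lie on the same chromosome. Fads1 measured 18.6, 22.2 and 21.1 RPKM under the control hairpin and 18.1, 22.6 and 23.3 RPKM under the Hmgb1 hairpin, with overlapping groups (log2 fold change 0.04, SE 0.16, limma adjusted p = 0.926). Its value was -0.028, 0.10, 0.16 and -0.022 with shCTRL A, shCTRL B, shHMGB1 A and shHMGB1 C omitted in turn, and -0.0005 with shHMGB1 B omitted. Fads2 measured 50.7, 54.7 and 51.98 RPKM under the control hairpin and 55.02, 75.02 and 51.4 RPKM under the Hmgb1 hairpin, where replicate B of shHMGB1 alone stood well above the other libraries (log2 fold change 0.19, SE 0.18, limma adjusted p = 0.775), and the log2 fold change was 0.020 with it omitted and 0.29 with shHMGB1 C omitted.

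Much of the spread lay between libraries of the same group, and it was shared by the sterol enzymes. As the median over the 19 sterol genes, the log2 deviation from each gene's mean was 0.14, -0.13 and -0.48 in shCTRL and 0.47, 0.20 and -0.18 in shHMGB1. The value of shHMGB1 replicate C was below those of shCTRL replicates A and B, so the groups overlapped. Replicate A was the highest library for 16 of the 19 genes in shCTRL and for 16 of 19 in shHMGB1. For 13 of the 19, replicate A was highest and replicate C lowest in both groups, against 9.21% of all genes tested. The other 6 were Hmgcs1, Sqle, Tm7sf2, Ebp, Dhcr7 and Stard4. Acly and Elovl6 of the fatty acid arm had the same arrangement. The regulators had median deviations of -0.15, -0.27 and 0.24 in shCTRL and -0.39, 0.16 and 0.53 in shHMGB1, with replicate C highest in both groups, and the fatty acid arm had 0.02, -0.16 and -0.14 in shCTRL and 0.02, 0.16 and 0.15 in shHMGB1. The labels do not say whether a letter marks a shared day or batch.

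**Figure D4:**
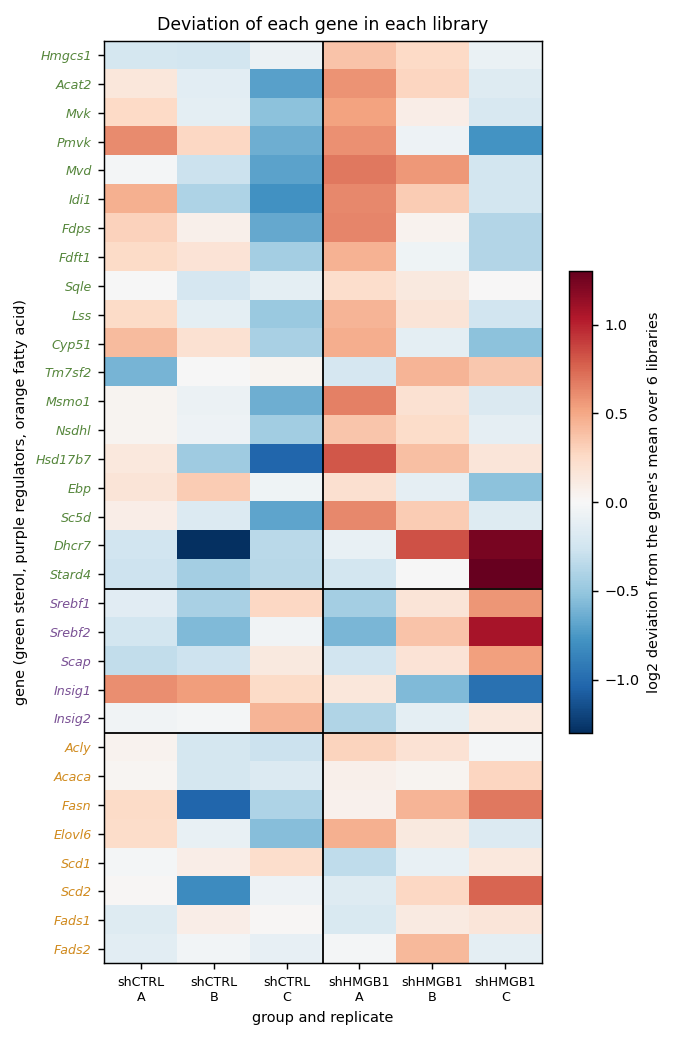
Log2 deviation of each gene from its own mean over the 6 libraries, by group and replicate, with red above and blue below the mean. Most sterol enzymes are red in replicate A and blue in replicate C of both groups, Srebf2, Dhcr7, Stard4, Fasn and Scd2 are reddest in shHMGB1 replicate C, and Insig1 is red across shCTRL and blue in shHMGB1 replicates B and C.

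Gene length moved with the libraries as well. Across 11659 genes, the deviation of a library from its group mean had a Spearman correlation with gene length of -0.43 in shHMGB1 replicate A and 0.51 in shHMGB1 replicate C, and of -0.31 to 0.27 in the other 4, as a description over genes that share libraries. The lengths recovered for the members run from 1453 bases for Fdps to 10050 bases for Fasn. Srebf2 (4989 bases), Stard4 (5202), Scd2 (5453) and Fasn were highest of their group in shHMGB1 replicate C, whereas Hsd17b7 (5046), Sc5d (4866) and Elovl6 (6134) were lowest there. With the length trend of each library taken off, the median log2 fold changes were 0.37 in the sterol arm, 0.14 among the regulators and 0.20 in the fatty acid arm, that of Insig1 was -0.90, and 0 members passed the test. The log2 fold changes of 5 members moved by over 1.5 times, to 0.060 for Acaca (9513 bases), 0.15 for Elovl6, 0.027 for Fads1, 0.031 for Fdft1 and -0.086 for Pmvk.

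Of 61 other genes of these pathways, 58 were in the table, 56 were tested and 0 passed in either direction. At an unadjusted p under 0.05, 4 were higher and 2 lower. Over all genes tested 0.0257% passed, and 3.78% were higher and 4.13% lower at the unadjusted threshold. The median log2 fold change of the 56 genes was 0.02, with 30 positive and 26 negative, against 51.7% positive over all genes tested. Among the other pathway genes with the smallest p and higher values was Aacs, the acetoacetyl-CoA synthetase gene. Aacs measured 24.4, 18.6 and 22.4 RPKM under the control hairpin and 32.6, 38.3 and 33.2 RPKM under the Hmgb1 hairpin, without overlap (log2 fold change 0.67, SE 0.16, limma adjusted p = 0.389). Among lower values they were Mylip, which encodes a ubiquitin ligase, and the sterol exporter gene Abcg1, both known as targets of the sterol-sensing LXR receptors. Mylip measured 7.75, 9.32 and 9.77 RPKM under the control hairpin and 5.09, 4.67 and 7.13 RPKM under the Hmgb1 hairpin, without overlap (log2 fold change -0.68, SE 0.21, limma adjusted p = 0.502). Abcg1 measured 1.197, 2.195 and 3.299 RPKM under the control hairpin and 0.784, 1.19 and 1.32 RPKM under the Hmgb1 hairpin, with overlapping groups (log2 fold change -0.88, SE 0.38, limma adjusted p = 0.630). Of the 12 tested genes of synthesis, uptake and SREBP cleavage, 9 had positive values, with a median of 0.23. Of the 17 tested genes of sterol handling and the LXR side, 12 had negative values, with a median of -0.10. The medians were 0.01 over 15 genes of fatty acid and lipid metabolism with SREBP input and 0.05 over 9 genes of SREBP degradation and sterol sensing, and 3 of 3 genes of acetyl-CoA control had positive values.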

How the data were processed

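Total RNA of 6 AB22 libraries, depleted of ribosomal RNA and made into TruSeq libraries per the labels' protocols, is given in 1 deposited table of log2 RPKM per gene symbol. The authors' log2 values run from -9.20 to 17.74. Tools named for the authors' work in the submitters' processing notes are STAR 2.5.3a, Trimmomatic 0.32, featureCounts and edgeR, with the mouse builds mm10 and GRCm38. Strandedness, the gene model and the handling of reads that match more than 1 gene are not stated in the sources at hand. Base 2 was settled from the values. Effective library sizes of 10871390 to 25560028 reads were recovered from 1610 genes with 1 transcript, of whose values 90.3% lay within 0.05 of a whole read. Whether the authors had already adjusted these sizes between libraries was not tested. With these sizes, 12123 of 12134 genes had a length giving whole reads in all 6 libraries, to within 0.02 reads. Values were turned into RPKM, 11669 genes averaging 0.5 RPKM or more were kept and 465 left out, and log2(RPKM + 0.1) was tested with limma 3.58.1 in R 4.3.3 (trend and robust, two-sided, Benjamini-Hochberg adjustment over all 11669 genes, called at 0.05). Fold changes on that scale understate low genes. An exact permutation test of 3 against 3 libraries cannot go below p = 0.1 and was not used. Nothing says that replicates came from separate infections, so p-values reflect only how these libraries vary. The scripts were tested on simulated data. In the simulation of the limma step, 80 of 97 genes changed 2-fold, 96 of 96 changed 4-fold and 17 of 11457 unchanged genes were called. It gave all genes the same dispersion and held no gene length trend, unlike these libraries, so its shares need not hold for them.

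The 32 members and all gene lists were chosen with earlier results of these data known. Every member is named. Library values are given for the members of each role group with an unadjusted p under 0.05 and no overlap or, where fewer than 3 met this, for the 3 with the smallest p, for the most abundant member, for paralog pairs, and for the 2 lowest-p other pathway genes of each direction, of which 1 is not reported here. Library values of Hmgcs1, Sqle, Stard4 and Acaca are given outside that rule, chosen after their values were seen. There were 19 alternatives, of which 4 were chosen after seeing the data (no pseudocount, voom on the recovered reads with and without a replicate block, and removal of the gene length trend). Promoters come from RefSeq (GRCm38.p6).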

Additional observations from a re-analysis of the deposited data

How the results depend on the processing

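No member and none of the other pathway genes was called under any of the 19 alternatives. Among all genes tested, 3 were called, against 0 among genes of at least 5 RPKM, 5 with libraries rescaled to equal sums, 21 with array quality weights, 7 with the gene length trend taken off and 0 to 8 when 1 library was left out. The 5 members with an unadjusted p under 0.05 became 13 with equal sums (13 higher and 0 lower, without Insig1). They were 3 without trend and robust fitting, 8 with array quality weights and 2 to 9 when 1 library was left out. The share of all genes under 0.05, 7.91% in the main fit, was 6.33% with equal sums and 8.27% without trend and robust fitting. It was 16.9% with array quality weights and 3.65% to 20.9% when 1 library was left out. Rescaling to equal sums moved the median log2 fold change of all genes from 0.01 to 0.36, that of the sterol arm to 0.71 and that of the fatty acid arm to 0.62. Leaving out 1 library gave medians of 0.23 to 0.44 in the sterol arm, -0.04 to 0.47 among the regulators, and 0.20 to 0.37 in the fatty acid arm. Of 605 fold changes of members under alternatives, 18 changed sign, in 9 members. With equal sums these were Pmvk (0.19), Cyp51 (0.23), Ebp (0.067), Insig2 (0.11) and Scd1 (0.16), which follow from the shift of all genes, and with array quality weights Fdft1 (-0.10). Leaving out 1 library gave log2 fold changes of -0.52 to 0.18 for Pmvk, -0.084 to 0.44 for Fdps, -0.21 to 0.21 for Fdft1, -0.39 to 0.11 for Cyp51, -0.042 to 0.47 for Srebf1 and -0.028 to 0.16 for Fads1. The call of Hmgb1 was lost under the 5 RPKM filter and when any shCTRL library or shHMGB1 B was omitted, with log2 fold changes of -2.83 to -2.57. The cause of these changes was not tested.

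The main fit did not pair the samples by replicate letter, since the labels do not say what a letter marks. Deviations from the group means correlated between the groups at 0.145 for A, -0.104 for B and 0.476 for C. Whether libraries of the same letter share a batch was not tested. With the replicate block, 7 genes were called over the whole table, and 9 members had an unadjusted p under 0.05, beside 10.7% of all genes. With the block and voom on recovered reads these were 7 and 8, beside 10.9% of all genes, and no member was called. Tm7sf2, at 15 to 54 reads per library, had the fewest reads of the members. Its SE was 0.29, and the largest SE of the members was that of Dhcr7, at 0.41.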
